A study of Mus musculus with 72 samples.

Results

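The genes described here encode the nuclear subunits of the mitochondrial respiratory chain and ATP synthase. They were chosen by name: every gene on the array whose symbol begins with Nduf, Uqcr, Cox4i, Cox5, Cox6, Cox7, Cox8 or Atp5, and the 4 genes from Sdha to Sdhd. The rule found 93 of the 31093 gene names on the array. Of these, 89 had a probe that was detected on the arrays and were tested together with all other detected genes, 16086 in total. The 4 that were not detected, Cox7b2, Cox8b, Cox8c and Ndufa4l2, are paralogues known from testis, muscle or hypoxic tissue. The name rule also takes in 7 Ndufaf genes, which encode assembly factors and not subunits, and 3 genes named after ATP synthase that are no subunits of it: Atp5s, Atp5sl and the pseudogene Atp5c1-ps. Ndufa4 is counted below with complex IV, where its product is known to sit.

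Oxidative phosphorylation is the main source of ATP in most nucleated cells. Electrons from NADH enter at complex I and those from succinate at complex II, pass through complex III and cytochrome c to complex IV, which reduces oxygen, and the proton gradient that results drives ATP synthase, also called complex V. All but a handful of the subunits are encoded in the nucleus and imported, and for several complex IV subunits a second gene gives an isoform restricted to heart and muscle, lung or testis. In blood, mature red cells have lost their mitochondria, while reticulocytes, platelets and white cells still carry them.

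Expression was measured in the blood of 72 male, young adult C57BL/6 mice, 1 mouse per array. Mice received 0.25 or 1 Gy of neutrons (N025, N1), 1 or 4 Gy of x-rays (X1, X4) or a sham exposure (C), and blood was taken 1, 3 or 7 days later (d1, d3, d7). The neutrons came from an accelerator beam built to mimic the spectrum of an improvised nuclear device, which also delivers some gamma rays, and the x-rays from an orthovoltage source. At day 1 there were 5 Cd1, 6 N025d1, 6 N1d1, 6 X1d1 and 5 X4d1 mice, at day 3 there were 5 Cd3, 6 N025d3 and 5 X1d3 mice, and at day 7 there were 6 Cd7, 5 N025d7, 6 N1d7, 5 X1d7 and 6 X4d7 mice. In every group blood was drawn by cardiac puncture into an RNA-stabilising solution and globin transcripts were reduced before labelling. Neutrons and x-rays are matched in dose at 1 Gy, whereas 0.25 Gy was given as neutrons only and 4 Gy as x-rays only.

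All levels are log2 intensities of a gene's brightest detected probe, with the median of the detected probes of each array set to 0, so a level of a gene can be compared between mice but not with that of another gene. A difference of 1 is a 2-fold change. A gene was called where limma gave an unadjusted p below 0.001 and, over all genes tested, a Benjamini-Hochberg adjusted p below 0.05, and all adjusted p-values below come from limma. None of the members was saturated on any array, none was below background on all arrays of a group, and 72 of the 89 lay among the brightest 25% of the genes tested. In whole blood, fewer cells of a type and less RNA per cell cannot be told apart.

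Blood cell markers were present in every group, but so were transcripts that blood cells do not make. The mean level of 13 detected hepatocyte genes, Alb and Apoa1 among them, ran from 1.17 to 7.41 in the Cd1 mice and from -1.44 to 0.78 in Cd7, and it was 8.19 to 9.03 in all 5 X4d1 mice. The heart and muscle genes Myl2, Nppa and Myl3 had a mean level of 3.44 and 2.42 in Cd7 mice 2 and 5, against at most 0.03 in the other 4 Cd7 mice. The N1d7 arrays were the dimmest: 40.2 to 50.3% of their spots were well above background, against 54.3 to 63.9% in Cd7, and their median intensity was 9.52 to 16.8 against 32.2 to 50.5. Values that touch the members are given beside the results below.

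**Figure D1:**
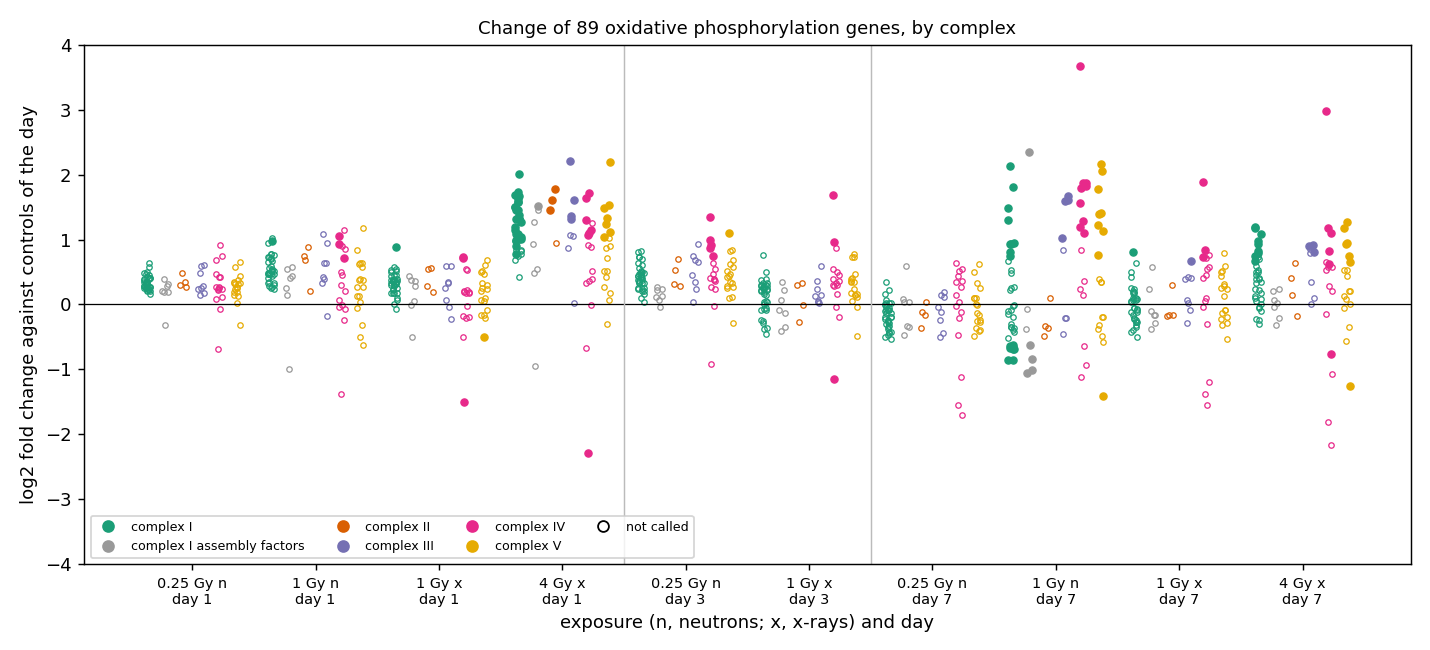
Log2 fold change of the 89 oxidative phosphorylation genes (vertical axis) for the 10 exposed groups against the controls of their day (horizontal axis), 1 point per gene, coloured by complex, filled where the gene was called. After 4 Gy x-rays at day 1 most points lie above 0 (84 of 89, 47 called higher). After 1 Gy neutrons at day 7 they spread both ways, with 31 called higher and 13 lower as centred on the array median and 15 higher and 24 lower after quantile normalization.

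The promoters of 6 members are printed here, because several factors that bind there are known to regulate nuclear mitochondrial genes together. A promoter of 300 bases, from 250 before to 50 after the start, was given for 76 of the 93 members (RefSeq, GRCm38.p6). Searched on both strands were GCGCATGC, the core bound by NRF1, CCGGAAG, the core of ETS factors such as GABP, AAGATGGC, a YY1 core, and TCAAGGTCA, the site of oestrogen-related receptors. At least 1 of the 4 motifs stood in the promoters of 35 of the 76 members (46.1%), and in 15.3% of the 27025 genes with a promoter entry. The NRF1 core was found in 15.8% of members and 3.05% of all genes, the ETS core in 22.4% and 9.93%, the YY1 core in 14.5% and 3.19%, and the oestrogen-related receptor site in 2 of the 76 members and 126 of the 27025 genes. The NRF1 core overlaps its own match on the other strand in GCGCATGCGC. Of the complexes, the YY1 core was found in 7 of 32 complex I subunit genes (21.9%) and in 4 of 16 complex V genes (25%). It was found in 0 of 3 complex II, 0 of 5 complex III and 0 of 14 complex IV genes with an entry. With so few genes the complexes were not compared by a test. Motif matches are printed in capitals, read 5′ to 3′ along the gene's strand. The first 5 genes, of ATP synthase, complex IV, complex III, complex II and complex I, hold at least 1 motif. Atp5k, Cox6a1, Uqcr11 and Sdhb hold 2 kinds. Of the 76 members only 7 held at least 2 kinds and 41 held none, so these promoters are not typical of the members. Cox6b2, which had the largest rise of any member, held none of these letters in this window.
Atp5k, chr5:108434350-108434649 (minus strand): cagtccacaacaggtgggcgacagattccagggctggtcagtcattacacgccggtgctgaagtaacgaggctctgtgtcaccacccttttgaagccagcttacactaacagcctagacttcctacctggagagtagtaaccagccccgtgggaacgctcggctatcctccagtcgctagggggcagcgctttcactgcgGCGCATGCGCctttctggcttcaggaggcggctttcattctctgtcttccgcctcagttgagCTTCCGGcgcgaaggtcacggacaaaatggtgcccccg
Cox6a1, chr5:115348909-115349208 (minus strand): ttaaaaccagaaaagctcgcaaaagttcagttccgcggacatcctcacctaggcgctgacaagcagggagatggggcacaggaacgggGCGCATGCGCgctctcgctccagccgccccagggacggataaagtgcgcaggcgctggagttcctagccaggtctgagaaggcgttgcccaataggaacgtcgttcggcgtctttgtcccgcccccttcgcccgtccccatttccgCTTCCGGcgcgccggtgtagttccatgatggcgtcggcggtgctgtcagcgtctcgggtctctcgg
Uqcr11, chr10:80406772-80407071 (minus strand): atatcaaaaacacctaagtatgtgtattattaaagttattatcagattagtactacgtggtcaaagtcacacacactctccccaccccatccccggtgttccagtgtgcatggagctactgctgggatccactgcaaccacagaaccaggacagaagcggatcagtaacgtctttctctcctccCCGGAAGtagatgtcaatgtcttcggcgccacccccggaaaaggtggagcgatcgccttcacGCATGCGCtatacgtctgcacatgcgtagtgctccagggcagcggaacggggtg
Sdhb, chr4:140961021-140961320 (plus strand): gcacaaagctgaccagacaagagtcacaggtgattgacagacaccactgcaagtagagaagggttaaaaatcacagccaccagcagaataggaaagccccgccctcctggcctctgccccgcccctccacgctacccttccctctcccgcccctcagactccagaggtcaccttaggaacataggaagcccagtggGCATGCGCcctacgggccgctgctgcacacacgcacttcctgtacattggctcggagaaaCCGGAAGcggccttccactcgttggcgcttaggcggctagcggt
Ndufs4, chr13:114388045-114388344 (minus strand): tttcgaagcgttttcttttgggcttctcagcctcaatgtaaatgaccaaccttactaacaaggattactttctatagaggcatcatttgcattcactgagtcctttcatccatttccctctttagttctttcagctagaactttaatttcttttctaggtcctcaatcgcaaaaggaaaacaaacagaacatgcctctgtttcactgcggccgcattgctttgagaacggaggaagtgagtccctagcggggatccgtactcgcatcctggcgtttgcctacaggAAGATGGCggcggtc
Cox6b2, chr7:4753045-4753344 (minus strand): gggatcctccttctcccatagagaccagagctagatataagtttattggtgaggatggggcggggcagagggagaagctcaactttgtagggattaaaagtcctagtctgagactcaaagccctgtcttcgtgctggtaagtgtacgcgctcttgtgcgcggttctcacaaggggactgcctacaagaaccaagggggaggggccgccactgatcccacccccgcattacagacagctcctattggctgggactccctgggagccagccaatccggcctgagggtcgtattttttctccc

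Most members were higher 1 day after 4 Gy of x-rays. Of the 89 members, 47 were higher in X4d1 than in Cd1 and 1 was lower, which is 52.8% and 1.12% of them, against 12.8% and 16.6% of all genes tested. The median log2 fold change of the members was 1.08, while that of all genes was -0.09, and 84 members were above 0. Without Cd1 mouse 5 the calls fell from 48 to 31, and with the background corrected by the normexp method only 4 members were called, all higher. That setting added an offset of 50 to every intensity. Why the calls were lost under it was not tested.

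Complex I contributed 26 of the calls. Its accessory subunits, which surround the catalytic core, had 24 of 29 called higher and a median of 1.27, and its 7 core subunits, which carry the flavin and iron-sulphur clusters, had 2 called and a median of 0.84. Ndufv1, the subunit that binds NADH and the flavin, had levels of 3.38, 3.47, 3.56, 3.95 and 4.38 in Cd1 and of 4.95, 5.20, 5.62, 6.49 and 6.50 in X4d1. The groups did not overlap, and the log2 fold change was 2.01 ± 0.33 (SE; adjusted p = 0.0005244). Among the other core subunits Ndufs3 rose by 1.32 ± 0.29 (adjusted p = 0.002747). Ndufs1, Ndufs7, Ndufs8 and Ndufv2 had log2 fold changes between 0.75 and 0.98 and were not called. Ndufs4, an accessory subunit needed for late assembly, had levels of 3.75, 3.78, 3.85, 3.95 and 3.99 in Cd1 and of 4.71, 5.11, 5.17, 5.33 and 5.60 in X4d1, a rise of 1.32 ± 0.18 (adjusted p = 0.000172). Ndufab1, the mitochondrial acyl carrier protein, rose by 1.58 ± 0.33. Of the 7 assembly factors only Ndufaf1 was called, with a log2 fold change of 1.51 ± 0.28 (adjusted p = 0.001078).

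Of the 4 subunits of succinate dehydrogenase, 3 were called at X4d1. Sdhc, a membrane anchor, had levels of 2.36, 2.74, 2.76, 2.85 and 2.92 in Cd1 and of 3.78, 4.31, 4.35, 4.97 and 5.12 in X4d1 (1.78 ± 0.25, adjusted p = 0.0002176). The iron-sulphur subunit Sdhb rose by 1.61 ± 0.25 and the other anchor, Sdhd, by 1.46 ± 0.25. The flavoprotein Sdha was not called, with a log2 fold change of 0.95 ± 0.23.

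In complex III, 4 of 8 genes rose. The largest change was that of Uqcrq, a small membrane subunit, with levels of 3.98, 4.04, 4.04, 4.34 and 5.36 in Cd1 and of 5.68, 6.06, 6.51, 7.18 and 7.34 in X4d1 (2.20 ± 0.36, adjusted p = 0.0005052). All 5 X4d1 mice lay above the highest control, Cd1 mouse 4, which itself stood apart from the other controls. The Rieske protein Uqcrfs1 rose by 1.32 ± 0.23 and Uqcr10 and Uqcr11 by 1.36 ± 0.25 and 1.60 ± 0.26. The hinge protein Uqcrh had a log2 fold change of 0.02 ± 0.19.

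Of the 11 general subunits of cytochrome c oxidase, 6 rose at X4d1. Cox5b had levels of 4.25, 4.30, 4.39, 4.42 and 4.96 in Cd1 and of 5.63, 5.90, 5.98, 6.64 and 6.73 in X4d1 (1.71 ± 0.24, adjusted p = 0.0002244). Ndufa4 rose by 1.64 ± 0.21, Cox5a by 1.30 ± 0.18, Cox6b1 by 1.14 ± 0.19, Cox7c by 1.10 ± 0.23 and Cox7a2 by 1.08 ± 0.17. Cox4i1, which carries a regulatory nucleotide site, had 0.92 ± 0.28 and was not called, nor were Cox6a1 with 0.39 ± 0.20 and Cox8a with 0.52 ± 0.16.

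The member that fell was Cox6a2, the heart and skeletal muscle form of subunit 6a. Its level was -1.47, -1.18, -1.09, -1.08 and -0.92 in Cd1 and -3.98, -3.69, -3.49, -3.10 and -2.89 in X4d1, a change of -2.28 ± 0.22 (adjusted p = 2.237e-05). It fell after 1 Gy x-rays as well, where the 6 X1d1 mice ran from -3.27 to -2.24 with a median of -2.53 (-1.50 ± 0.19, adjusted p = 0.001365). After 1 Gy neutrons its levels ran from -3.73 to -1.05 and overlapped the controls (-1.37 ± 0.40, not called). At day 3 it fell in X1d3, with -1.15 ± 0.24 (adjusted p = 0.04502), a call that was lost on leaving out any 1 of 7 of the 10 mice. The mean level of the heart and muscle genes overlapped between these groups, at -3.06 to -2.51 in Cd1 and -3.23 to -2.45 in X4d1.

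Of the 15 subunits of ATP synthase, 7 rose at X4d1. Atp5g1, which makes the c subunit of the rotor ring, had levels of 4.22, 4.33, 4.43, 4.71 and 5.21 in Cd1 and of 6.04, 6.11, 6.85, 7.40 and 7.43 in X4d1 (2.19 ± 0.32, adjusted p = 0.0002426). A further gene for the same protein, Atp5g3, rose by 1.53 ± 0.22, and the third, Atp5g2, had 0.43 and was not called. The stalk subunit Atp5o rose by 1.48 ± 0.30 and the catalytic-head subunit Atp5a1 by 1.04 ± 0.19. Atp5b, the catalytic subunit itself, was not called with 0.52 ± 0.21.

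The level of the liver transcripts moved with this rise. The median level of the 89 members was 3.47 to 3.91 in Cd1 and 4.28 to 5.37 in X4d1, and the hepatocyte genes were also higher in every X4d1 mouse than in any Cd1 mouse, 5 of the 13 being called. Within Cd1, N025d1, X1d1 and X4d1 and within Cd3 and N025d3, but not within N1d1 or X1d3, the mouse with the most liver transcripts was also the mouse with the highest member median. The correlation of both measures within X4d1 was 0.977 over 5 mice. With the hepatocyte level as a covariate on the log2 scale, 0 members were called higher and 1 lower, with a median of 0.90. With the same level on the linear scale, 0 members were called and the median was -0.15, against -0.10 for all genes. The part of liver transcripts in the day 1 rise was not tested beyond these values, and 4 Gy of x-rays and a high liver level cannot be told apart at day 1. No X4d1 array shared a scan date with a Cd1 array, so scan date and exposure cannot be told apart either. With scan date as a random block 59 members were called and the median was 1.07, but such a block cannot remove a difference between dates that the groups do not share.

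Other mitochondrial genes were counted alongside in X4d1, where 12.8% of all genes were higher and 16.6% lower. Of 76 mitochondrial ribosomal protein genes 14 were higher and 0 lower (median 0.69), of 28 assembly factors of complexes II to V 8 were higher (median 0.76), of 17 citric acid cycle genes 4 (median 0.79), of 20 import and outer membrane genes 3 higher and 1 lower (median 0.67) and of 20 glycolysis genes 7 higher and 1 lower (median 0.45). The 9 probes described as mitochondrially encoded subunits were all above 0, with 1 called. Of 13 regulators of mitochondrial biogenesis, such as Ppargc1b and Nrf1, 0 were higher and 1 lower (median -0.26), and none of 7 genes for cytochrome c, the inhibitor of ATP synthase and the ADP/ATP carriers was called. Among the blood cells, all 8 B cell genes, 7 of 12 T cell genes and 7 of 13 reticulocyte and red cell genes were lower in X4d1, and 1 of 10 platelet genes was higher. Their part in the members' rise was not tested.

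**Figure D2:**
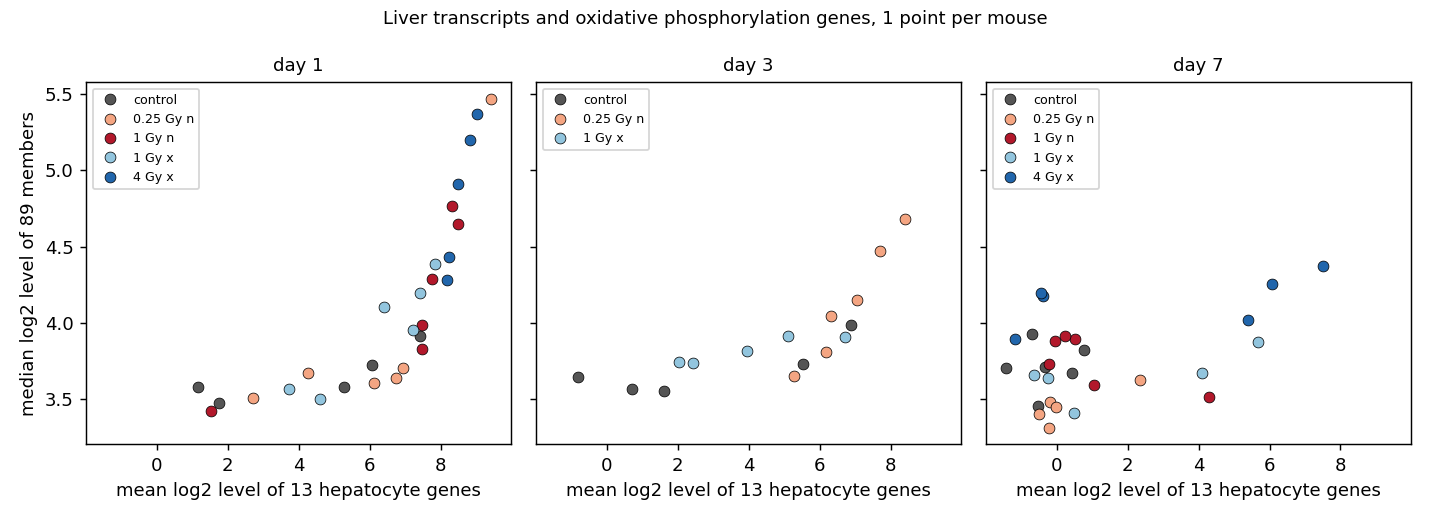
Median log2 level of the 89 members in each mouse (vertical axis) against the mean log2 level of 13 hepatocyte genes (horizontal axis), at days 1, 3 and 7, with 1 point per mouse coloured by exposure. At day 1 the member median is highest in the mice with the highest hepatocyte level, up to 5.47 at a level of 9.43 in an N025d1 mouse. At day 7 the X4d7 mice lie between 3.89, at a hepatocyte level of -1.17, and 4.37, at the highest level of the group.

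At the lower doses few members were called at day 1. After 0.25 Gy neutrons the count was 0 of 89 by limma, with 4 at an unadjusted p under 0.05, and 0.00622% of all genes were called either way. The median of the members was 0.29, and N025d1 mouse 5, with the highest liver level of all 72 mice, had a member median of 5.47 against 3.51 to 3.70 in the other 5 mice. After 1 Gy neutrons 4 members were higher and 0 lower, which is 4.49% and 0% of them, against 5.62% and 10.7% of all genes. In X1d1, 3 members were higher and 2 lower (3.37% and 2.25%), against 2.66% and 3.8% of all genes. The members' median was 0.47 in N1d1 and 0.29 in X1d1, where that of all genes was -0.08 and 0.00.

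The genes called at N1d1 were Ndufa4, Ndufs4, Cox5a and Cox6b1. The first 3 of them were those called higher at X1d1, a comparison that uses the same controls. Ndufa4 was 4.34, 4.38, 4.56, 4.60 and 4.88 in Cd1, ran from 5.06 to 6.25 with a median of 5.55 in N1d1 and from 5.10 to 5.47 with a median of 5.24 in X1d1. No exposed mouse overlapped the controls, and the log2 fold changes were 1.06 ± 0.21 (adjusted p = 0.003298) and 0.71 ± 0.13 (adjusted p = 0.005565). Ndufs4 ran from 4.18 to 5.12 with a median of 5.00 in N1d1 and from 4.41 to 5.03 with a median of 4.72 in X1d1, where the highest control was 3.99, with changes of 0.97 ± 0.18 (adjusted p = 0.00222) and 0.89 ± 0.13 (adjusted p = 0.002091). Cox5a overlapped the controls in both groups (0.94 ± 0.21 and 0.73 ± 0.16). Cox6b1, a subunit on the intermembrane-space side, rose by 0.72 ± 0.15 in N1d1 (adjusted p = 0.004114). In X1d1 it had 0.54 ± 0.16 and was not called, and the direct comparison of both groups did not call it either. The genes lower at X1d1 were Cox6a2 and Atp5s, the latter named after a factor of ATP synthase and now called Dmac2l (-0.50 ± 0.11, adjusted p = 0.01262). The Atp5s call was lost on leaving out any 1 of 8 of the 11 mice. The N1d1 count fell to 1 without Cd1 mouse 1, 3 or 5 and to 2 without Cd1 mouse 2 or N1d1 mouse 1, 2 or 6, and with the array scaled to its 75th percentile it was 2 higher and 1 lower. With scan date as a block or the replicate number as a block 0 members were called in N1d1 by limma, and within the scan date that 4 N1d1 mice shared with the controls 1 was, which was none of these 4 genes. No X1d1 array shared a scan date with a control, so scan date and exposure cannot be told apart there. With scan date as a random block, which cannot remove a difference between unshared dates, 2 members were called in X1d1. The liver level ran from 1.53 to 8.49 in N1d1 and from 3.74 to 7.83 in X1d1, and with it as a covariate on the log2 scale 1 member was called in N1d1 and 3 in X1d1. The X1d1 count fell to 3 without any of 3 controls (mice 2, 3 and 5) or 4 X1d1 mice (2, 3, 4 and 5), and centring on spike-in controls left 0 higher and 1 lower.

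Set against each other at day 1, 1 Gy neutrons and 1 Gy x-rays gave 0 of 89 members called by limma, 6 with an unadjusted p under 0.05, where 9.64% of all genes were called either way. The members' median was 0.18 higher in N1d1. Between N1d1 and X4d1 the count was again 0, with 42 at an unadjusted p under 0.05 and 0.0311% of all genes called either way. The median was -0.59, with 86 members lower in N1d1, where the hepatocyte level ran from 1.53 to 8.49 and overlapped that of X4d1. With that level as a covariate on the linear scale the median was 0.04. A p that misses the threshold does not show that the exposures act alike.

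At day 3 complex IV carried most of the calls. After 0.25 Gy neutrons 6 members were higher and 0 lower (6.74% and 0%), against 0.547% and 0.988% of all genes, and the median was 0.41 against -0.05. Of the 6, 4 were general subunits of cytochrome c oxidase: Ndufa4 rose by 0.99 ± 0.16, Cox7a2 by 0.91 ± 0.20, Cox7b by 0.87 ± 0.16 and Cox6c by 0.75 ± 0.17. The others were Cox6b2 and Atp5k, a membrane subunit of ATP synthase. Atp5k was 4.70, 4.76, 4.83, 4.98 and 5.21 in Cd3 and ran from 5.56 to 6.44 with a median of 6.00 in N025d3 (1.09 ± 0.18, adjusted p = 0.03925). None of the 6 genes overlapped between the groups, but the adjusted p-values lay between 0.03925 and 0.04909, and no member was called on leaving out any 1 of Cd3 mice 1, 3, 4 and 5 or N025d3 mice 3 to 6. The hepatocyte level was 5.27 to 8.40 in N025d3 and -0.82 to 6.88 in Cd3, and 0 members were called with it as a covariate.

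After 1 Gy x-rays 2 members were higher at day 3 and 1 lower (2.25% and 1.12%), against 1.11% and 0.305% of all genes. They were Cox6b2, Cox7a2 and, lower, Cox6a2. Cox7a2, a small subunit whose muscle form is Cox7a1, was 4.16, 4.55, 4.80, 4.88 and 5.09 in Cd3 and 5.45, 5.51, 5.64, 5.72 and 5.98 in X1d3 (0.96 ± 0.20, adjusted p = 0.0479). The groups did not overlap. The count was 0 without Cd3 mouse 2, 3, 4 or 5 or X1d3 mouse 2 or 4, 1 without X1d3 mouse 5 and 6 without X1d3 mouse 1. Spike-in centring left 0 higher and 1 lower, and quantile normalization, cyclic loess and normexp each left 1 higher and 0 lower. No X1d3 array shared a scan date with a Cd3 array, so scan date and exposure cannot be told apart. With scan date as a random block, which cannot remove a difference between unshared dates, 10 members were called.

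Cox6b2 had the largest change of any member against controls. It encodes the testis form of subunit 6b and is known from sperm. At day 1 it had log2 fold changes between -0.67 and 0.09 in the 4 exposed groups and was not called. At day 3 its levels were 1.85, 2.07, 2.10, 2.20 and 2.48 in Cd3 and 3.29, 3.58, 3.89, 3.98 and 4.37 in X1d3, and ran from 2.69 to 4.19 with a median of 3.49 in N025d3. Every exposed mouse lay above every control, with changes of 1.68 ± 0.22 (adjusted p = 0.02552) and 1.34 ± 0.26 (adjusted p = 0.03925). Both day 3 calls were lost in leave-one-out fits, on omitting any 1 of 6 mice for X1d3 and any 1 of 8 for N025d3. At day 7 the 6 Cd7 mice ran from 1.77 to 2.75 with a median of 2.33, while the 5 N025d7 mice had 2.73, 2.98, 3.02, 3.06 and 3.26 and the 5 X1d7 mice 3.80, 4.13, 4.32, 4.41 and 4.64. The X4d7 mice ran from 4.81 to 5.80 (median 5.36) and the N1d7 mice from 5.19 to 6.66 (median 6.07). The order of the groups was therefore control, 0.25 Gy neutrons, 1 Gy x-rays, 4 Gy x-rays and 1 Gy neutrons. Of these, N025d7 overlapped Cd7 by 1 mouse (0.65 ± 0.17, not called) and N1d7 overlapped X4d7 (0.69 ± 0.24, not called), whereas the other neighbours were apart. The changes against Cd7 were 1.89 ± 0.20 (adjusted p = 0.001799) in X1d7, 2.98 ± 0.21 (adjusted p = 7.886e-07) in X4d7 and 3.67 ± 0.24 (adjusted p = 3.676e-07) in N1d7, and 1.77 ± 0.24 (adjusted p = 0.0006201) between N1d7 and X1d7. The calls in N1d7 and X4d7 were kept under all normalizations tried, with changes from 1.76 after spike-in centring to 3.69 and from 2.67 after normexp to 3.10. Its probe does not tell which cells the transcript came from. The mean level of 13 reticulocyte and red cell genes, Alas2 and Slc4a1 among them, was 4.23 to 4.81 in Cd7 and 4.68 to 5.88 in X4d7. It was 5.45 to 6.10 in X1d7, overlapping X4d7, and 6.42 to 7.37 in N1d7. Whether reticulocytes contribute to the level of Cox6b2 was not tested.

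**Figure D3:**
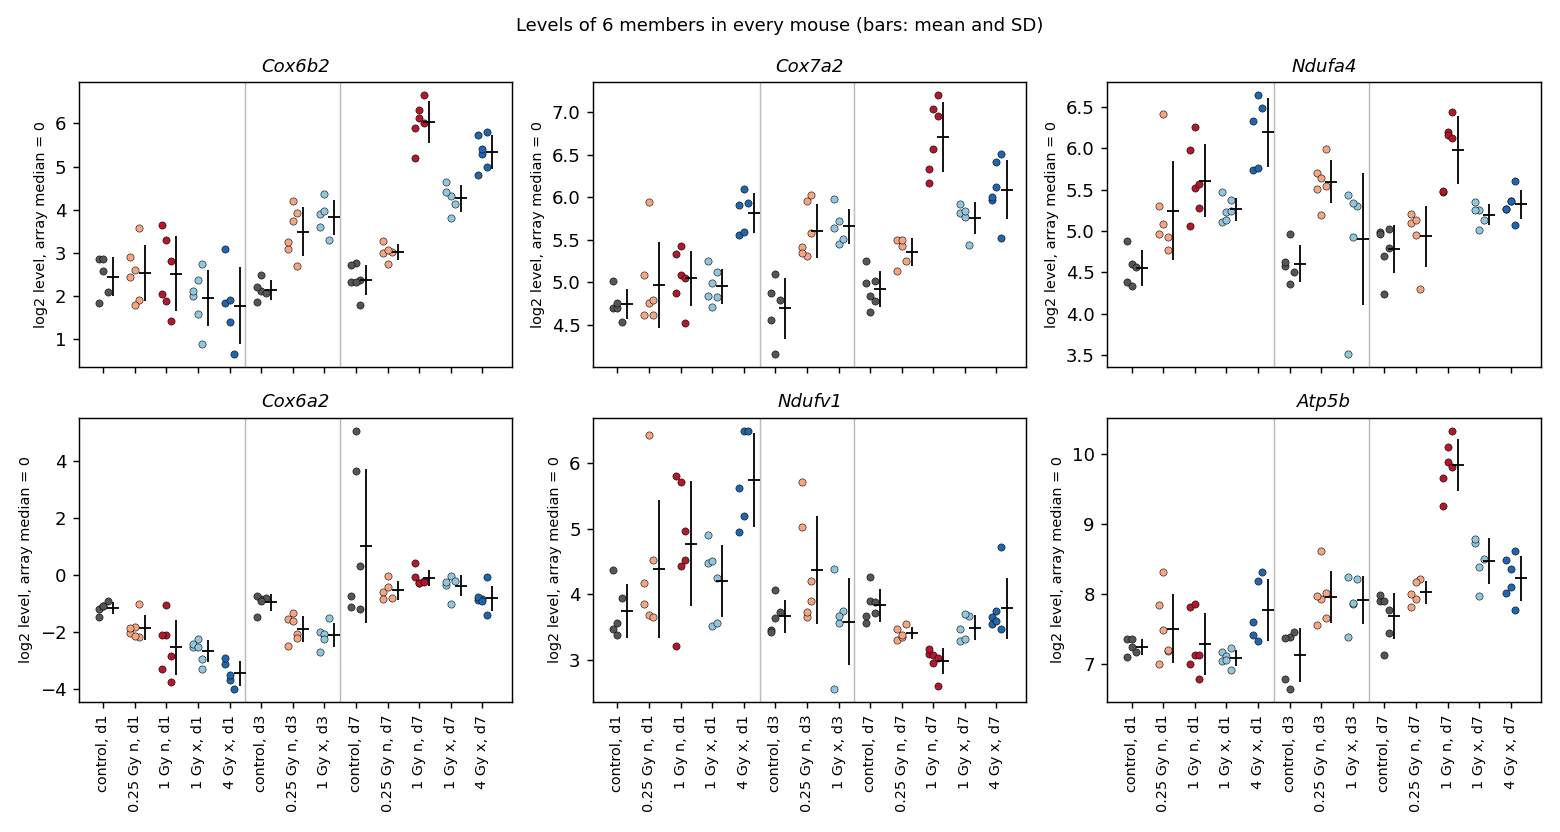
Log2 level (vertical axis, array median set to 0) of Cox6b2, Cox7a2, Ndufa4, Cox6a2, Ndufv1 and Atp5b in every mouse of the 13 groups (horizontal axis), with bars for the mean and SD. Cox6b2 is above all controls in every N1d7, X1d7 and X4d7 mouse, Ndufv1 is raised in X4d1 but has its lowest group mean in N1d7, and Cox6a2 is high, at 3.67 and 5.07, in 2 of the 6 Cd7 mice.

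At day 7 after 1 Gy of neutrons the calls differed between the complexes, whose genes also differ in brightness. Of the 89 members 31 were higher in N1d7 than in Cd7 and 13 lower (34.8% and 14.6%), against 18.5% and 17.8% of all genes. The median was 0.14 for the members and -0.05 for all genes, but the sign of this small difference depended on the scaling and on the scan date: relative to all genes it was 0.19 under the main scaling, 0.05 with dim spots left out, -0.09 after cyclic loess, -0.12 after quantile normalization and -0.85 after normexp. The split of the calls moved likewise, to 26 higher and 16 lower at the 75th percentile, 25 and 21 after cyclic loess, 15 and 24 after quantile normalization, 21 and 35 with dim spots left out and 2 and 9 after normexp. The normexp setting added an offset of 50 to every intensity, more than the median intensity of any N1d7 array. This lowers bright genes against the array median most on such dim arrays, so its shift cannot decide the direction. With scan date as a block, where only N1d7 mouse 1 shared a date with the controls, 10 members were called and the median was -0.15. Centring on spike-in controls put the median of all genes at -1.96 in N1d7, and between -1.03 and 0.46 in the other 9 comparisons with controls, and with it 1 member was higher and 49 lower in N1d7. Changes below are therefore relative to the array median. The brighter members had the higher changes, with a rank correlation of 0.606 between change and probe brightness over the 89 members, described here without a test, against 0.112 over all genes. Among the brightest 25%, 30.6% of all genes were higher and 11.7% lower, and 28 of 72 members were higher and 7 lower.

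In cytochrome c oxidase the changes of N1d7 were upward. Of its 11 general subunits 8 were called higher and 0 lower, with a median of 1.28. Over all 16 detected complex IV genes, the median relative to all genes was 1.20, and it was 0.56 after quantile normalization and 0.63 after cyclic loess but -0.31 after normexp. Cox7a2 ran from 4.65 to 5.25 (median 4.92) in Cd7 and from 6.17 to 7.20 (median 6.76) in N1d7, a change of 1.79 ± 0.19 (adjusted p = 6.704e-06). Cox8a, the general form of subunit 8, ran from 6.95 to 7.25 (median 7.21) and from 8.30 to 9.36 (median 9.16), a change of 1.82 ± 0.18 (adjusted p = 4.235e-06). Neither overlapped. Cox6a1 and Cox6c each rose by 1.87, Cox7b by 1.56 ± 0.17, Cox7c by 1.28 ± 0.18, Ndufa4 by 1.19 ± 0.20 and Cox6b1 by 1.10. Cox4i1 and Cox5a, which are known to join the enzyme early in its assembly, had 0.84 and 0.24, and the zinc-binding Cox5b had 0.14, none of them called.

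ATP synthase had 7 of 15 subunits higher and 0 lower in N1d7, with a median of 0.39. The catalytic subunit Atp5b ran from 7.12 to 7.98 (median 7.83) in Cd7 and from 9.26 to 10.34 (median 9.84) in N1d7 (2.16 ± 0.20, adjusted p = 2.531e-06). Atp5l, a membrane subunit known from the dimer contact, ran from 7.12 to 7.91 (median 7.53) and from 9.08 to 9.95 (median 9.63), with 2.06 ± 0.19 (adjusted p = 2.524e-06). All 6 N1d7 mice were above all 6 controls for both genes. Atp5h rose by 1.78 ± 0.16, Atp5k by 1.39, Atp5e by 1.22 ± 0.17 and Atp5a1 by 0.75 ± 0.17, while the genes of the c ring had 0.39 (Atp5g2), -0.49 (Atp5g3) and -0.58 (Atp5g1) and were not called. Of the other Atp5 names, Atp5s rose by 1.41 and Atp5sl fell: it ran from 2.92 to 3.36 in Cd7 and from 1.23 to 2.06 in N1d7 (-1.41 ± 0.15, adjusted p = 7.819e-06). Atp5sl is now named Dmac2 and is known as a complex I assembly factor.

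Complex III had 4 of 8 genes higher and 0 lower, with a median of 0.93. Uqcrh ran from 6.65 to 7.43 (median 7.04) in Cd7 and from 7.99 to 9.22 (median 8.81) in N1d7 (1.67 ± 0.21, adjusted p = 2.242e-05). Spike-in centring turned its change below 0. The small subunits Uqcr11 and Uqcr10 rose by 1.61 ± 0.16 and 1.59 ± 0.16 and the core protein Uqcrc2 by 1.02 ± 0.17. The other core protein, Uqcrc1, had -0.21, the Rieske protein Uqcrfs1 -0.21 and Uqcrb -0.45, none of them called.

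Complex I went both ways. Of its 36 subunit genes 9 were higher and 8 lower in N1d7, with a median of -0.09, and after quantile normalization 3 were higher and 14 lower. Ndufa1, a small membrane-arm subunit, ran from 5.79 to 6.32 (median 6.00) in Cd7 and from 7.70 to 8.41 (median 8.33) in N1d7 (2.13 ± 0.16, adjusted p = 7.111e-07), and Ndufa3, also of the membrane arm, rose by 1.81 ± 0.17. Ndufv1 ran from 3.56 to 4.27 (median 3.80) in Cd7 and from 2.60 to 3.17 (median 3.05) in N1d7, a change of -0.85 ± 0.15 (adjusted p = 0.0003146). Ndufa9, which is known to stabilise the joint of both arms, ran from 1.34 to 1.98 (median 1.57) and from 0.65 to 1.08 (median 0.76), a change of -0.85 ± 0.14 (adjusted p = 0.000227). No values overlapped for these genes. Of the 7 core subunits 3 fell (Ndufv1, Ndufs3 and Ndufs8) and 1 rose, Ndufs1, by 0.93 ± 0.20. Ndufs7 and Ndufv2 had -0.43 and -0.14 and were not called.

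Most assembly factors of complex I were lower in N1d7: 4 of 7 were called lower, with a median of -0.63 over the 7. Ndufaf2 ran from -0.37 to -0.01 (median -0.08) in Cd7 and from -1.79 to -0.92 (median -1.12) in N1d7 (-1.06 ± 0.16, adjusted p = 8.655e-05). Ndufaf1 fell by 1.01, Ndufaf6 by 0.84 and Ndufaf3 by 0.63. Under normexp 0 of the 7 were called and the median was 0.05. Ndufaf5, an arginine hydroxylase, was higher: it ran from -0.34 to 2.61 (median 1.94) in Cd7 and from 2.65 to 4.70 (median 3.87) in N1d7 (2.34 ± 0.53, adjusted p = 0.001995), a call that was lost on leaving out any 1 of 7 of the 12 mice. None of the 4 complex II genes was called, with log2 fold changes of 0.10 (Sdha), -0.34 (Sdhb), -0.37 (Sdhc) and -0.49 (Sdhd).

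Other mitochondrial genes were counted alongside in N1d7, where 18.5% of all genes were higher and 17.8% lower. Of 76 mitochondrial ribosomal protein genes 5 were higher and 34 lower (median -0.52), of 28 assembly factors of complexes II to V 2 were higher and 9 lower (median -0.57), of 17 citric acid cycle genes 0 and 6 (median -0.45), of 20 import and outer membrane genes 1 and 4 (median -0.31), and of 13 regulators of mitochondrial biogenesis 1 and 8 (median -0.76). Of 7 genes for cytochrome c, the inhibitor of ATP synthase and the ADP/ATP carriers 2 were higher and 2 lower. The 9 probes described as mitochondrially encoded subunits had 3 higher and 0 lower with a median of -0.17. Of 20 glycolysis genes 3 were higher and 1 lower. Beside these, 36 of 76 cytosolic ribosomal protein genes were higher and 3 lower, and 12 of 13 reticulocyte and red cell genes were higher and 0 lower (median 2.78), with no overlap between N1d7 and Cd7 in their mean level. The part of reticulocytes in the members' changes was not tested.

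**Figure D4:**
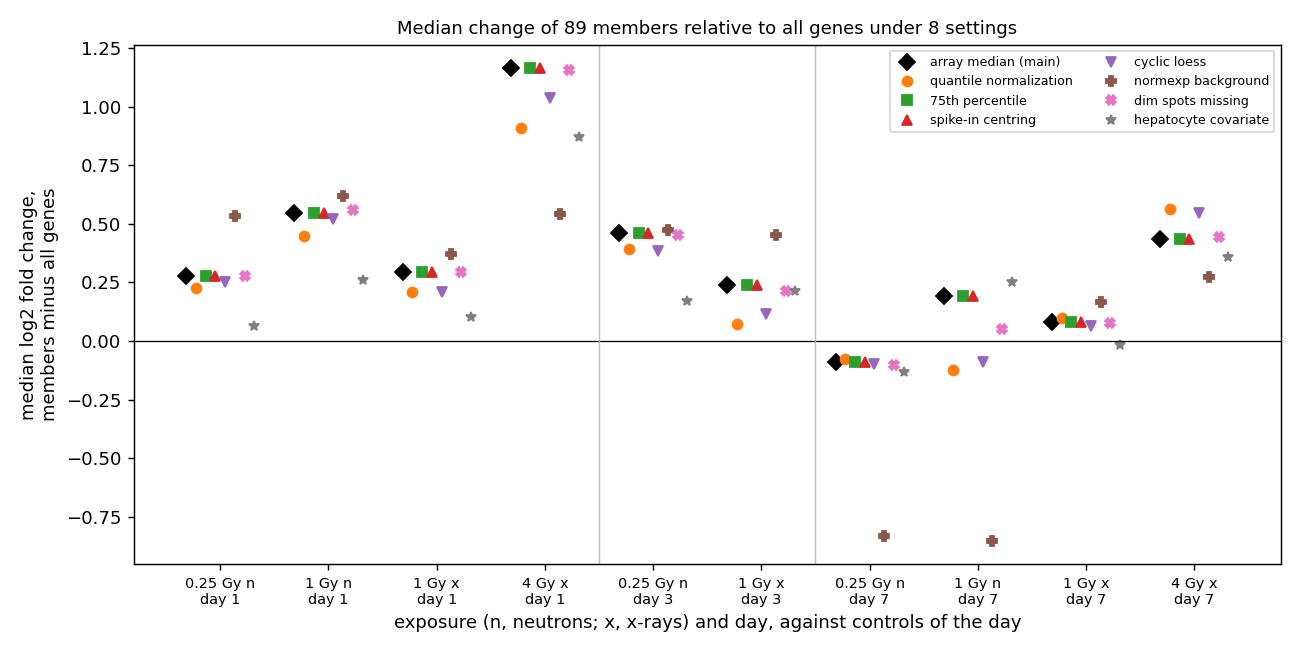
Median log2 fold change of the 89 members minus that of all genes (vertical axis) in the 10 comparisons with controls (horizontal axis) under 8 settings of the processing. For 4 Gy x-rays at day 1 it lies above 0 under all 8, at 1.16 under the main setting and 0.87 with the hepatocyte level as a covariate on the log2 scale. With that level on the linear scale, which is not plotted, the median of the members alone, without that of all genes taken off, was -0.15. For 1 Gy neutrons at day 7 the plotted difference changes sign, from 0.19 under the main setting to -0.12 after quantile normalization and -0.85 after normexp.

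In X1d7, 5 members were higher and 0 lower (5.62% and 0%), against 2.64% and 1.1% of all genes. They were Cox6b2, Cox7a2, Cox7b, Ndufa1 and Uqcr11, all of which were also higher in N1d7 against the same controls. Cox7a2 had levels of 5.44, 5.77, 5.82, 5.84 and 5.93 in X1d7, above the highest control at 5.25 (0.84 ± 0.14, adjusted p = 0.006355). Ndufa1 ran from 6.52 to 7.17 with a median of 6.80 (0.80 ± 0.14, adjusted p = 0.008302), also above all controls. Cox7b rose by 0.73 ± 0.13 and Uqcr11 by 0.67 ± 0.15. The Uqcr11 call was lost on leaving out any 1 of 9 of the 11 mice, and without Cd7 mice 2 and 5, an alternative chosen after seeing the data, neither Ndufa1 nor Uqcr11 was called. No X1d7 array shared a scan date with a control, so scan date and exposure cannot be told apart. Atp5b had 0.79 ± 0.20 and overlapped the controls. The median of the members was 0.05. After 0.25 Gy of neutrons 0 members were called at day 7 by limma, with 30 at an unadjusted p under 0.05, where 0.547% of all genes were called either way, and 56 of 89 members were below 0 with a median of -0.11. Without Cd7 mouse 1 this count was 1.

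At the same dose of 1 Gy, neutrons and x-rays differed at day 7 in members and in other genes. Of the 89 members 24 were higher in N1d7 than in X1d7 and 1 was lower, against 13.1% and 6.98% of all genes. Among the brightest 25%, 22.6% of all genes were higher and 2.78% lower, and 22 of 72 members were higher and 1 lower. The 24 included 8 complex IV, 7 complex V, 6 complex I and 3 complex III genes, and all 16 detected complex IV genes were above 0, with a median of 0.81. Atp5l was higher by 1.47 ± 0.20 (adjusted p = 0.0006336), Atp5b by 1.37 ± 0.21, Ndufa1 by 1.33 ± 0.18, Uqcrh by 1.27 ± 0.22 and Cox8a by 1.24 ± 0.23. The lower gene was Atp5sl (-0.88 ± 0.19, adjusted p = 0.003513), whose call was lost on leaving out any 1 of 7 mice. The count of 25 fell to 16 without X1d7 mouse 2 and to 15 without X1d7 mouse 3. It depended on the scaling, with 18 higher and 4 lower at the 75th percentile, 4 and 2 after cyclic loess, 3 and 5 after quantile normalization, 4 and 24 with dim spots left out, 1 and 12 after normexp and 0 and 1 after spike-in centring.

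At day 7 after 4 Gy of x-rays 23 members were higher than in Cd7 and 2 lower (25.8% and 2.25%), against 7.71% and 8.12% of all genes. The median was 0.39 for the members and -0.05 for all genes, and 70 members were above 0. Relative to all genes the median was above 0 under every normalization tried, from 0.28 after normexp to 0.56 after quantile normalization, although normexp left 1 call and spike-in centring 6. Each of the 2 groups was scanned on dates of its own, so scan date and exposure cannot be told apart.

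The members that rose in X4d7 beside Cox6b2 came from 4 of the 5 complexes. Atp5j, coupling factor 6 of the ATP synthase stalk, ran from 3.32 to 3.92 (median 3.77) in Cd7 and from 4.77 to 5.12 (median 4.97) in X4d7 (1.28 ± 0.13, adjusted p = 1.617e-05). In N1d7 it had 0.35, and it was lower in N1d7 than in X4d7 by the direct test given below. Ndufb6, a membrane-arm subunit of complex I, ran from 1.67 to 2.85 (median 2.58) and from 3.58 to 3.77 (median 3.63), a change of 1.20 ± 0.18 (adjusted p = 0.0003368). The core protein Uqcrc1 ran from 1.64 to 2.11 (median 1.88) and from 2.43 to 3.24 (median 2.85), a change of 0.92 ± 0.15 (adjusted p = 0.0006877). No values overlapped for these 3 genes. The stalk subunit Atp5o rose by 1.18 ± 0.21, Cox7a2 by 1.17 ± 0.17, Ndufa11 by 1.17 ± 0.20, Cox6b1 by 1.10 ± 0.15, Ndufs1 by 0.98 ± 0.14, Uqcrc2 by 0.90 ± 0.10, Cox5b by 0.82 ± 0.12 and Ndufab1 by 0.82 ± 0.19. None of the 4 complex II genes and none of the 7 assembly factors was called. By complex, 9 of 36 complex I subunits (median 0.40), 3 of 8 complex III subunits (median 0.80), 4 of 11 complex IV subunits (median 0.57) and 6 of 15 complex V subunits (median 0.53) rose.

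The members that fell in X4d7 were Cox7a2l and Atp5sl. Cox7a2l, listed as a supercomplex factor by its name only, ran from 6.52 to 7.05 (median 6.72) in Cd7 and from 5.56 to 6.26 (median 6.01) in X4d7 (-0.76 ± 0.14, adjusted p = 0.001457). This call was lost after quantile normalization, spike-in centring and normexp and with the hepatocyte covariate. Atp5sl ran from 1.49 to 2.29 in X4d7, below all controls (-1.26 ± 0.15, adjusted p = 6.429e-05). The liver level was below 0 in X4d7 mice 1, 3 and 5, at -1.17, -0.39 and -0.44, and the member medians of these mice were 3.89, 4.17 and 4.19, against 3.45 to 3.93 in Cd7. With the hepatocyte covariate on the log2 scale 20 members were higher and 1 lower. Of 76 mitochondrial ribosomal protein genes 2 were higher and 4 lower, of 17 citric acid cycle genes 3 were higher, of 20 glycolysis genes 2, and of the 9 mitochondrially encoded probes 1 was lower and all 9 were below 0 (median -0.55). Of 76 cytosolic ribosomal protein genes 34 were lower and 0 higher. All 8 B cell genes were lower, 5 of 8 NK cell genes and 4 of 10 neutrophil genes were higher. Of all genes, 7.71% were higher and 8.12% lower in X4d7.

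Compared directly at day 7, 1 Gy of neutrons and 4 Gy of x-rays differed in members and in other genes. This is the dose pair that the study set side by side. Of the 89 members, 16 were higher in N1d7 than in X4d7 and 22 lower. Of all 16086 genes, 3653 were higher and 2356 lower (22.7% and 14.6%), so the difference was not confined to the members. The higher ones included Atp5l (2.41 ± 0.24, adjusted p = 3.064e-06), Ndufaf5 (2.66 ± 0.36), Cox8a (1.61 ± 0.20), Uqcr10 (1.59 ± 0.16) and Ndufa1 (1.54 ± 0.20). Lower in N1d7 were Atp5o (-1.56 ± 0.18, adjusted p = 1.175e-05), Atp5j (-0.93), Uqcrb (-1.24 ± 0.17), Ndufs3 (-1.12 ± 0.17), Ndufaf6 (-1.07 ± 0.21), Sdhc (-1.01 ± 0.16) and Cox5b (-0.68 ± 0.14). By complex, 10 of 36 complex I subunits were lower and 2 higher, while 5 complex IV genes were higher and 1 lower. The split moved to 15 higher and 35 lower at the 75th percentile, 5 and 34 after cyclic loess, 5 and 51 after quantile normalization, 11 and 48 with dim spots left out, 0 and 12 after normexp and 0 and 71 after spike-in centring.

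The muscle forms could not be followed at day 7 in the same way, because the controls differed. Cox6a2 was -1.17, -1.11, -0.73, 0.34, 3.67 and 5.07 in Cd7, and Cox7a1 was -1.90, -1.55, -1.52, -0.81, 3.36 and 4.41. The high values belong to Cd7 mice 2 and 5, those with muscle transcripts. Cox6a2 had -1.81 ± 0.99 in X4d7 against all 6 controls and -0.14 without these mice, and was not called. Cox4i2, the lung form of subunit 4, has no value in Cd7 mouse 6, which its fits leave out, and was not called against controls in any group. Cox7a1 at X4d1 had 1.26 ± 0.30 and was not called.

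The effect of each exposure on the members changed between days 1 and 7, and the difference was tested in 1 fit over both days and their controls, with positive values where the day 7 effect was the higher. For 1 Gy neutrons 16 members had a higher and 14 a lower effect at day 7, against 16.1% and 7.94% of all genes. Cox6b2 had the largest positive difference (3.6 ± 0.47, adjusted p = 2.676e-06), followed by Ndufaf5 with 3.33 ± 0.77, Atp5l with 2.38 ± 0.26 and Atp5b with 2.12 ± 0.29. Further down, Uqcrh had 1.85 ± 0.27 and Ndufa1 1.67 ± 0.24. Ndufv1 went from a day 1 change of 1.03 to one of -0.85, a difference of -1.88 ± 0.44 (adjusted p = 0.001711). Complex IV had 6 genes higher and 0 lower, and complex I 3 and 9. The split was 10 and 21 after cyclic loess, 8 and 18 after quantile normalization, 13 and 37 with dim spots left out, 0 and 9 after normexp and 0 and 61 after spike-in centring.

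For 4 Gy x-rays 1 member had a higher and 24 a lower effect at day 7, against 11.3% and 8.45% of all genes, with a median of -0.69 against 0.02. The higher one was Cox6b2 (3.65 ± 0.44, adjusted p = 4.675e-06). Ndufv1, raised by 2.01 at day 1, had -0.04 at day 7, a difference of -2.05 ± 0.39 (adjusted p = 0.0004663). Atp5g1 had -1.98 ± 0.40, Ndufaf1 -1.72 ± 0.34, Sdhb -1.47 ± 0.26, Cox5a -1.44 ± 0.24, Uqcr10 -1.36 ± 0.27, Sdha -1.13 ± 0.29 and Uqcrfs1 -0.98 ± 0.25. With the liver level as a linear covariate 2 were higher and 2 lower and the median was 0.07. Spike-in centring gave 1 higher and 2 lower and normexp 1 higher and 0 lower.

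Over the 10 comparisons with controls, 15 of the 89 members were never called, 32 were called in 1, 28 in 2 and 8 in 3, where of all 16086 genes 6224 were never called, 5323 were called in 1, 2423 in 2 and 1205 in 3. The members called most often were Cox7a2 in 6, Cox6b2 and Ndufa4 in 5 each, and Atp5k, Cox6b1 and Uqcr11 in 4 each. Comparisons of a day share their controls, so these counts are not independent. Among all genes 98 were called in 6 comparisons, 30 in 7 and 1 in 8. For 24 members more than 1 probe was detected, and in each comparison between 1 and 8 of these had probes of opposite sign, but in no comparison were both called in opposite directions.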

How the data were processed

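Blood RNA of 72 mice in 13 groups, taken from the sample labels, was hybridised to one-colour Agilent mouse arrays. The deposited files hold intensities that the authors extracted with Agilent Feature Extraction 12.0.2, per the labels; each spot is background-corrected, and arrays are not normalized. A further deposited table holds log2 values that the authors normalized; most of its columns follow another sample's array, so it served only as an alternative for N025d1.

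Each array had 44397 spots; 1377 controls were dropped, leaving 39429 probes. Intensities were log2-transformed and centred on the median of the detected probes. A probe passed as detected (19808 probes) if outlier flags and failures to exceed background together touched under 25% of its spots, counted over the 56 day 1 and day 7 arrays, and the brightest detected probe stood for a gene. Groups were compared with limma 3.58.1 (lmFit, eBayes; R 4.3.3), 2-sided, without covariates, following the article's design but without its filter on 1.5-fold variation, which was an alternative. limma stands for its random variance test. Scripts were tested on simulated data. The number of mice limits the precision, and p-values measure the spread between mice.

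The members, gene lists and tests were chosen with earlier results of these data known. Genes named are those fixed by role in each complex, the called member of each complex with the largest rise and fall and no overlap, those called most often, and any called at 0.25 Gy. Alternatives were quantile, 75th percentile, spike-in and cyclic loess scaling, normexp background, dim spots as missing, filters, the mean of probes, blocks for scan date, slide and replicate number, the hepatocyte level as covariate, and leaving out each mouse. The normexp setting added an offset of 50 to every intensity, which shrinks log2 changes, most on dim arrays.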

Additional observations from a re-analysis of the deposited data

Results flagged for a closer look

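Within a group, a mouse was marked where the highest or lowest value lay far from the next one, judged by the gap as a share of the group's whole range. Chance alone marks about 1 in 20 groups, and 40 of the 325 groups of values examined were marked (12.3%). In N025d1, mouse 5 had a median over the members of 5.47 while the others had 3.51 to 3.70, a gap of 0.899 of the range. The same mouse was high for Sdhc (0.887), Atp5j (0.868), Ndufb6 (0.849), Ndufa9 (0.825), Ndufaf2 (0.816), Cox5b (0.802), Uqcrc1 (0.737), Uqcrq (0.716), Atp5k (0.714), Uqcr11 (0.713), Ndufv1 (0.688), Atp5g1 (0.676), Ndufa4 (0.675) and Cox7a2 (0.64). Its liver level of 9.43 was the highest measured.

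Among the day 1 groups, Cd1 mouse 4 was high for Uqcr11 (gap of 0.839 of the range), Cox5b (0.753) and Uqcrq (0.742), and N025d1 mouse 6 for Cox6a2 (0.715). N1d1 mouse 3 was low for Ndufa1 (0.835), Cox7a2l (0.718) and Cox5a (0.675), and X1d1 mouse 6 for Ndufaf5 (0.732). At day 3, Cd3 mouse 1 was low for Cox6a2 (0.745), Cd3 mouse 5 for Ndufa1 (0.762) and Ndufs4 (0.713), and X1d3 mouse 1 for Ndufaf2 (0.736) and Ndufa4 (0.733). At day 7, N025d7 mouse 3 was low for Ndufa4 (0.717), N025d7 mouse 4 high for Ndufa1 (0.863) and Ndufb6 (0.721), N1d7 mouse 1 high for Cox6a2 (0.692) and N1d7 mouse 6 low for Ndufv1 (0.64) and Atp5sl (0.635). X1d7 mouse 5 was high for Atp5j (0.865) and Ndufa9 (0.733), X4d7 mouse 6 was high for Ndufv1 (0.78), Atp5g1 (0.715) and Ndufa9 (0.692), and X4d7 mouse 1 was low for Uqcrq (0.632).

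The effect of an exposure differed between the days, by limma's test of the day 7 effect minus the day 1 effect, for 30 members after 1 Gy neutrons and for 25 after 4 Gy x-rays. After 1 Gy neutrons the difference was positive for Cox6b2 (3.6), Ndufaf5 (3.33), Atp5l (2.38), Uqcrh (1.85) and Ndufa1 (1.67) and negative for Ndufv1 (-1.88), Atp5g1 (-1.75), Ndufaf2 (-1.61) and Sdhd (-1.24). After 4 Gy x-rays it was positive for Cox6b2 (3.65) and negative for Ndufv1 (-2.05), Atp5g1 (-1.98), Ndufaf1 (-1.72), Sdhb (-1.47), Cox5a (-1.44) and Uqcr10 (-1.36).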

How the results depend on the processing

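Counts are members called either way, medians are log2 fold changes over the 89 members, and the cause of a change was not tested. Recomputed counts stayed within 1.5 times the main one in 327 cases and not in 121. Medians moved by less than the spread between replicates in 394 cases. They moved by at least that spread in 37 cases without and in 17 with a change of sign. Smaller changes of sign are counted among the 394.

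Fitting all 13 groups together called 1 member in N025d1, 2 in X1d1, 10 in N025d3, 5 in X1d3, 8 in X1d7 and 10 in N1d1 against X4d1. The 1.5-fold filter left 2 in N1d1, 3 in X1d1 and 16 in the day difference after 4 Gy x-rays. Without a detection filter there were 3 in X1d1, 0 in N025d3 and 0 in X1d3. Dim spots as missing gave medians of -0.40 in N1d7 and -0.28 in N1d7 against X1d7, 59 members in N1d7 against X4d7 and 50 in the neutron day difference. Scaling to the 75th percentile gave 29 in X4d1 and 12 in the x-ray day difference.

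Quantile normalization gave 3 in X1d1, 1 in X1d3, 8 in N1d7 against X1d7 and 11 in the x-ray day difference, medians of -0.32 in N1d7 and -0.16 in N1d7 against X1d7, and -0.054 for Cox8a in N1d7 against X4d7. Cyclic loess gave 7 in N1d1, 2 in X1d1, 1 in X1d3, 1 in N1d1 against X1d1, 6 in N1d7 against X1d7 and a median of -0.12 in N1d7. Spike-in centring gave 1 in X1d1, 0 in N025d3, 1 in X1d3, 18 in N025d7, 0 in X1d7, 6 in X4d7, 1 in N1d7 against X1d7, 71 in N1d7 against X4d7, and 61 and 3 in the neutron and x-ray day differences. Its medians were -0.57 in X1d3, -1.77 in N1d7, -0.80 in X1d7 and -0.81 in N1d7 against X1d7. It turned Uqcrh to -0.24 in N1d7, Ndufa1 to -0.046 and Uqcr11 to -0.18 in X1d7, Ndufa1, Uqcr10 and Cox8a to -0.50, -0.45 and -0.43 in N1d7 against X4d7, and Ndufa1, Uqcrh and Atp5l to -0.78, -0.60 and -0.069 in the neutron day difference.

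Normexp gave 0 in N1d1, 0 in X1d1, 4 in X4d1, 0 in N025d3, 1 in X1d3, 2 in N025d7, 11 in N1d7, 1 in X1d7, 1 in X4d7, 13 in N1d7 against X1d7, 12 in N1d7 against X4d7, and 9 and 1 in the neutron and x-ray day differences. Its medians were -0.74 in N1d7 and -0.82 in N1d7 against X1d7, where Ndufa1, Uqcrh and Atp5l turned to -0.35, -0.42 and -0.14, and Ndufaf6 was 0.16 in N1d7 against X4d7.

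With scan date as a block there were 0 in N1d1, 0 in N025d3, 10 in N1d7 (median -0.15), 12 in N1d7 against X1d7, 7 in N1d7 against X4d7 and 8 in the neutron day difference. As a random block it gave 2 in X1d1, 10 in X1d3 and 12 in X1d7, where exposed mice and controls shared no date and the block cannot separate date from exposure. Within a scan date shared with controls there was 1 in N1d1 and 0 in N025d3. Chosen after seeing the data, slide as a random block gave 9 in N1d1, 3 in X1d1, 0 in N025d3, 5 in X1d3 and 20 in N1d1 against X4d1, and leaving out Cd7 mice 2 and 5 gave 3 in X1d7.

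The hepatocyte covariate on the log2 scale gave 1 in N1d1, 3 in X1d1, 1 in X4d1, 0 in N025d3 and 0 in X1d3. On the linear scale, also chosen after seeing the data, it gave 1 in N1d1 (median -0.074), 3 in X1d1, 0 in X4d1 (median -0.15), 0 in N025d3, 1 in X1d3, 8 in X1d7, 1 in N1d1 against X1d1, a median of 0.043 in N1d1 against X4d1, a median of 0.12 in the neutron and 4 members with a median of 0.074 in the x-ray day difference, and it turned Ndufv1, Ndufaf1 and Uqcrq in X4d1 to -0.15, -0.25 and -0.19.

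Correlations between same-numbered mice ran from -0.533 to 0.641. Only in X1d7 against Cd7 were they all above 0, from 0.0638 to 0.411. The numbers were not taken to pair the mice. A replicate block left 0 in N1d1, 2 in X1d1, 24 in X4d1, 0 in N025d3, 1 in X1d3, 3 in X1d7, 5 in N1d7 against X1d7, and 19 and 12 in the neutron and x-ray day differences.

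Leaving out each mouse gave 1 to 5 in N1d1, 3 to 5 in X1d1, 31 to 58 in X4d1, 0 to 9 in N025d3, 0 to 6 in X1d3, 0 to 1 in N025d7, 36 to 47 in N1d7, 4 to 7 in X1d7, 19 to 30 in X4d7, 15 to 30 in N1d7 against X1d7, 33 to 46 in N1d7 against X4d7, 24 to 42 in the neutron and 18 to 33 in the x-ray day difference, and 0 in N025d1, in N1d1 against X1d1 and in N1d1 against X4d1. The dim N1d7 arrays limit what can be measured there.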

Other observations

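The lists of other blood cells were counted in the same fits. In N1d1, 8 of 8 B cell genes and 5 of 12 T cell genes were lower, and 29 of 76 cytosolic ribosomal protein genes were lower and 1 higher. Of all genes, 10.7% were lower and 5.62% higher there. In X1d1, 6 of 8 B cell genes and 6 of 13 reticulocyte and red cell genes were lower, against 3.8% of all genes. At day 3, 3 of 10 platelet genes were higher in X1d3, against 1.11% of all genes. In N1d7, where 18.5% of all genes were higher and 17.8% lower, 6 of 8 B cell genes were lower and 5 of 10 neutrophil genes higher. Of the T cell genes 3 of 12 were lower, a share near that of all genes. There, 1 of 8 monocyte genes, 1 of 10 platelet genes and 0 of 8 NK cell genes were called. In X1d7, 8 of 13 reticulocyte and red cell genes were higher, and 3 of 13 in X4d7, against 2.64% and 7.71% of all genes.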
